A study of Zea mays with 4 samples.

Results

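Primary roots of maize (Zea mays) were set against non-primary roots by the small RNA of their tips. The deposited table listed 576 mature miRNA entries, of which 221 had 20 or more recovered reads in at least 1 library and were compared. An entry was called separated when its lower value on 1 side was at least 2-fold above its higher value on the other side. By this rule 15 of the 221 entries were separated and 206 were not.

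The primary side held primary roots at an early stage (PRY, harvested 3 days after germination) and at a later stage (PRO, 15 days). The non-primary side held the seminal root (SR, at 7 days) and crown roots (CR, at 15 days), both taken at an early stage. All were seedlings of the cultivar Zhengdan 958 in Hoagland's solution, harvested as tips of 1 cm, and the labels name no aluminium treatment for them. Each of the 4 groups had 1 library, and the sources used here do not say how many plants a library held. The libraries of a side differ in stage, age or root type, so they are not replicates of each other. Ages do not match across the sides except for PRO and CR.

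The primary root grows from the embryonic root, seminal roots arise from the embryo beside it, and crown roots form later on nodes of the shoot. Plant miRNAs are cut as a duplex of a 5p and a 3p strand from a hairpin precursor. As a rule 1 strand, the guide, is kept by an Argonaute protein and represses transcripts that pair with it, while the other, the star strand, is mostly lost. The guide is the 5p strand in miR160, miR167, miR168 and miR169, and the 3p strand in miR159, miR166 and miR319.

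Library totals recovered from the values lay between 10721082 reads in PRY and 11572637 reads in SR. A single read was therefore worth 0.0864 to 0.0933 RPM, where RPM counts reads per 1000000 of the recovered total. The highest entries of all known families together took 10.6% and 9.12% of the total in PRY and PRO against 7.17% and 6.77% in SR and CR. Both primary libraries thus lay above both non-primary ones in this share. Most of it came from miR168a-5p, miR166a-3p and miR156d-5p. miR168a-5p alone stood at 67560 and 60102 RPM in PRY and PRO against 47529 and 51319 in SR and CR. Entries of miR2118 and miR2275, which trigger phased siRNAs in anthers and served as a check on other tissue, had at most 1 read in any library.

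Of the 221 entries, 13 (5.88%) were separated with the primary side higher and 2 (0.905%) with the non-primary side higher. The 15 entries (6.79%) held 9 distinct sets of values, because related miRNAs share reads. In tips sampled whole, fewer cells that make a miRNA and less of it per cell cannot be told apart. They belonged to the 3p strands of miR169, the 5p strands of miR160, both strands of miR159c and miR159d, and 3 candidate miRNAs of the authors. In 7 of the 15 the 95% interval of the ratio between the nearest libraries of the sides lay above 2-fold. The intervals are exact conditional binomial intervals, cover counting error only, and take no account of the choice of the nearest libraries. They were taken on entries already chosen for a 2-fold gap, so they are no independent support for it. Leaving out a library can only widen the set, and it gave 29 separated entries without PRY, 63 without PRO, 41 without SR and 39 without CR.

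**Figure D1:**
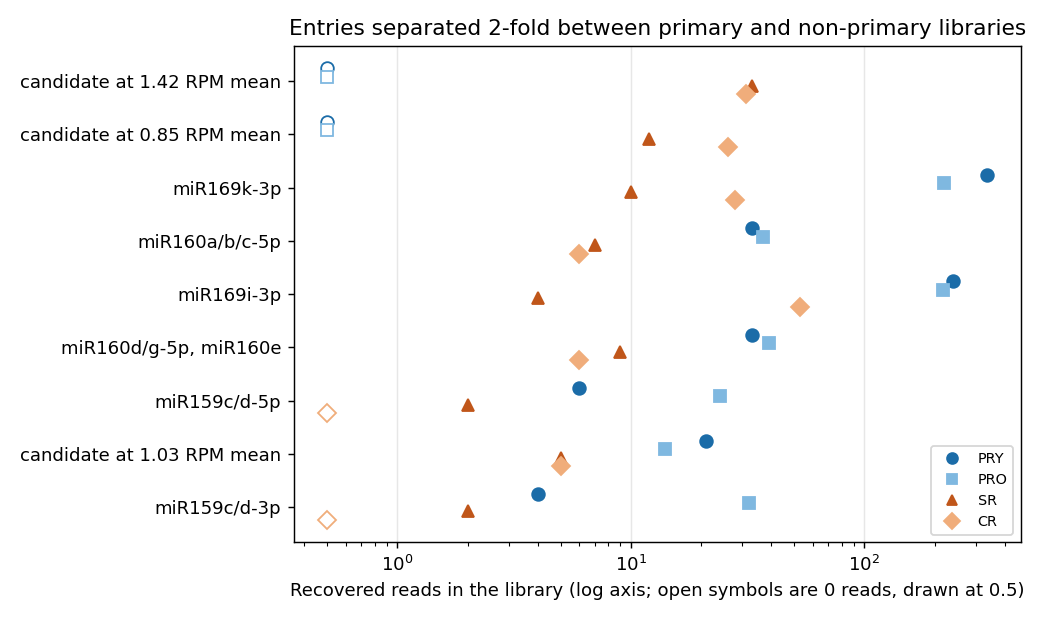
Recovered reads (log axis) of each separated set of values in the 4 libraries, with circles for PRY, squares for PRO, triangles for SR and diamonds for CR; open symbols are 0 reads, drawn at 0.5. The 2 sets at the top are candidates with 0 reads in both primary libraries, and in the other 7 sets both primary libraries lie above both non-primary ones.

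The star-strand products miR169k-3p and miR169i-3p had the most reads among the separated entries. The miR169 family represses NF-YA subunits of the NF-Y transcription factor through its 5p strand. miR169k-3p stood at 31.4 and 19.9 RPM in PRY and PRO against 0.864 and 2.56 in SR and CR, from 337, 220, 10 and 28 reads. Both primary libraries lay far above both non-primary libraries, and the gap of 7.76-fold between PRO and CR (5.22 to 11.9) exceeded the folds within the sides, 1.58 for the primary and 2.97 for the non-primary pair. miR169i-3p stood at 22.4 and 19.7 RPM in PRY and PRO against 0.346 and 4.85 in SR and CR, from 240, 218, 4 and 53 reads. Its primary values were nearly equal, while CR was 14.0-fold above SR, so the gap of 4.06-fold (3.00 to 5.59) was smaller than the spread within the non-primary side.

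For miR169i-3p and miR169k-3p the gap was that between the libraries of equal age, PRO and CR at 15 days. It held in all 6 scalings of the libraries that were tried, with a range of 2.13 to 4.06 for miR169i-3p and 5.11 to 7.90 for miR169k-3p. RefSeq's annotation of Zm-B73-REFERENCE-NAM-5.0 places the precursor genes MIR169i, MIR169j and MIR169k on 3 different chromosomes, so they are not neighbours.

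The other 3p strands of miR169 did not meet the 2-fold rule. miR169c-3p lay just outside the rule at 1.99-fold (1.64 to 2.42), with 29.7 and 33.0 RPM in PRY and PRO against 12.1 and 14.9 in SR and CR. Its sides did not overlap with the library total and overlapped in 1 of the 6 scalings. miR169j-3p stood at 9.61 and 3.71 RPM in PRY and PRO against 1.64 and 2.38 in SR and CR, a gap of 1.56-fold (0.930 to 2.65). For miR169a-3p and miR169b-3p the sides overlapped. Summed over the distinct 3p entries, miR169 stood at 129 and 93.8 RPM in PRY and PRO against 29.6 and 41.9 in SR and CR, a gap of 2.24-fold. This sum contains the separated miR169i-3p and miR169k-3p, so it is no separate support for the family. Near copies such as miR169a-3p and miR169b-3p, with nearly the same values, each enter it.

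None of the 8 tested 5p entries of miR169 was separated. The highest, miR169c-5p, stood at 66.8 and 71.6 RPM in PRY and PRO against 29.1 and 57.6 in SR and CR, a gap of 1.16-fold (1.04 to 1.29) that was lost to overlap in 5 of the 6 scalings. miR169k-5p stood at 6.72, 3.62, 2.07 and 4.76 RPM in the same order, with PRO below CR. The 5p entries of miR169i, miR169j and miR169k carried nearly the same values, so their reads cannot be assigned to 1 precursor.

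The ratio of 3p to 5p reads of a miRNA is taken within a library and does not depend on how libraries are scaled. For miR169k this ratio was 4.68 in PRY (95% interval 3.62 to 6.12), 5.50 in PRO (3.91 to 7.91), 0.417 in SR (0.178 to 0.904) and 0.538 in CR (0.327 to 0.868). Reads of miR169k-3p therefore outnumbered those of miR169k-5p in both primary libraries and were outnumbered by them in both non-primary ones. Because the 5p values are nearly those of miR169i and miR169j, this is not the strand balance of 1 precursor. The ratios of these names are also not independent of each other. For miR169i the ratio was 3.33 in PRY (2.55 to 4.40), 5.32 in PRO (3.79 to 7.62), 0.167 in SR (0.0420 to 0.485) and 1.00 in CR (0.670 to 1.49). The lower primary ratio was 8.69-fold above the higher non-primary one for miR169k and 3.33-fold for miR169i. miR169j moved less, with 1.51 and 1.03 in PRY and PRO against 0.792 and 0.520 in SR and CR, and the ratios of miR169a and miR169b overlapped between the sides.

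**Figure D2:**
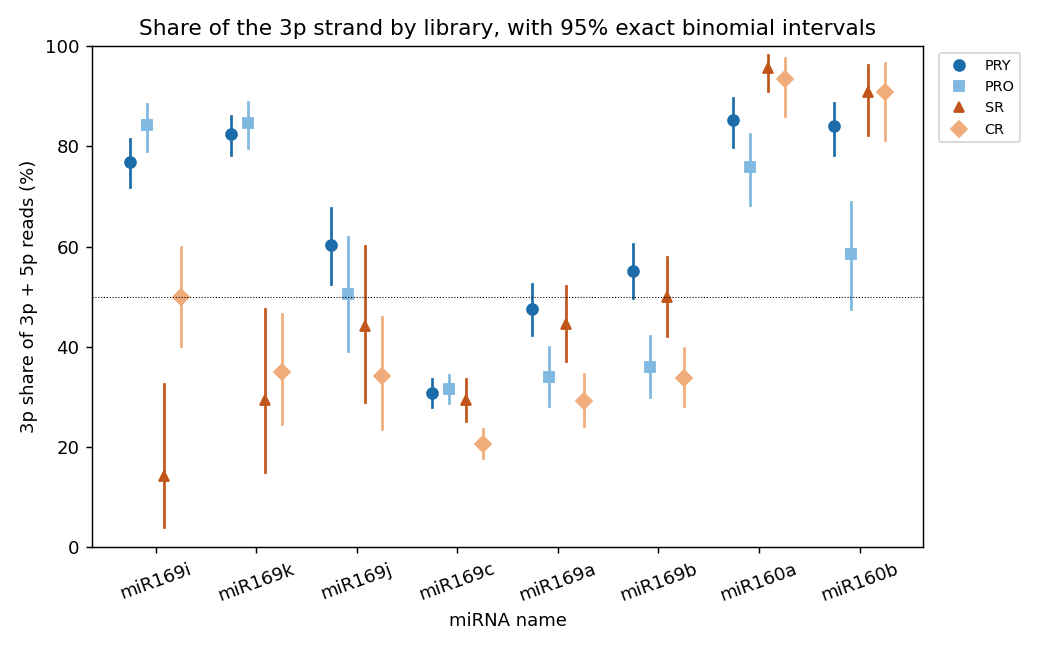
Share of 3p reads among the 3p and 5p reads of 8 miRNA names (percent, linear axis from 0 to 100) in PRY, PRO, SR and CR, with 95% exact binomial intervals as bars. For miR169k the share was 82.4% in PRY and 84.6% in PRO against 29.4% in SR and 35.0% in CR; for miR160a it was lower in both primary libraries.

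Among 36 miRNA names with both strands measured, 6 (16.7%) had a 3p to 5p ratio separated 2-fold between the sides, 3 in each direction. In 7 others the sides did not overlap but stayed below 2-fold, and in 23 they overlapped. A name entered when its strands together had 20 or more reads in every library and each strand reached 20 in at least 1 library. Beside miR169i and miR169k, whose 5p values were nearly the same, miR166l had a higher ratio in the primary libraries. Its gap was 2.07-fold, on 13 to 28 reads of its 5p strand. Higher in the non-primary libraries were miR160a, by 2.43-fold, and the nearly equal names miR528a and miR528b, by 4.26-fold and 4.25-fold on 0 to 26 reads of the 3p strand. The count fell to 4 when 50 reads of both strands together were required in every library. The names lost were miR169i and miR169k, which in SR had 24 reads of the 5p strand each and 4 and 10 of the 3p strand. miR160a, miR166l, miR528a and miR528b remained. It rose to 13 without PRY and 11 without PRO.

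The 5p strands of miR160, which repress a group of auxin response factors, had the widest gap among known guide strands. miR160a-5p, miR160b-5p and miR160c-5p shared the same values, 3.08 and 3.35 RPM in PRY and PRO against 0.605 and 0.549 in SR and CR, from 33, 37, 7 and 6 reads. Values within a side were close, with folds of 1.09 and 1.10, while the gap between the sides was 5.09-fold (2.21 to 13.6). miR160d-5p, miR160e and miR160g-5p stood at 3.08, 3.53, 0.778 and 0.549 RPM in the same order. Their gap was 3.96-fold, and its interval of 1.85 to 9.40 reached below 2. At equal age PRO was 6.09-fold above CR for miR160a-5p (2.55 to 17.7).

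All 6 of these miR160 entries stayed separated in the 6 scalings, with gaps of 2.59 to 5.09-fold for the first set and 2.23 to 3.96-fold for the second. They were few in reads, and the 6 entries carried nearly the same reads. The 3p star strands of the family did not follow. miR160a-3p stood at 17.7 and 10.5 RPM in PRY and PRO against 13.0 and 7.69 in SR and CR, so the sides overlapped. The ratio of 3p to 5p reads for miR160a was 5.76 in PRY (3.96 to 8.61), 3.14 in PRO (2.15 to 4.67), 21.6 in SR (10.2 to 54.6) and 14.0 in CR (6.17 to 39.2). The separated 5p strand thus had fewer reads than the 3p strand in all 4 libraries. miR160b also had more 3p than 5p reads in each library, though its ratio in PRO, 1.41, had an interval of 0.904 to 2.20.

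Other separated known entries rested on few reads. The miR159 family represses MYB transcription factors of the GAMYB type through its 3p strand. miR159c-5p and miR159d-5p shared 6 and 24 reads in PRY and PRO against 2 and 0 in SR and CR, a gap of 3.24-fold with an interval of 0.579 to 32.8. Their 3p strands, miR159c-3p and miR159d-3p, shared 4 and 32 reads in PRY and PRO against 2 and 0 in SR and CR, a gap of 2.16-fold (0.309 to 23.9). PRO was high in both sets and the 3 remaining libraries were near the floor of 3 reads. In these entries PRO was above PRY by 3.88-fold and 7.76-fold, more than the gap between the sides. With values under 3 reads raised to that floor, the 3p entries were no longer separated and 13 of the 15 entries remained called.

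The abundant members of that family were close to the rule from outside. miR159a-3p stood at 87.1 and 103 RPM in PRY and PRO against 53.6 and 55.4 in SR and CR, a gap of 1.57-fold (1.42 to 1.74) with the library total that was lost to overlap in 2 of the 6 scalings. With its near copies, among them miR159f-3p at 1.58-fold, it had the largest gap among the 58 entries with a mean of 50 RPM or more. None of those 58 was separated.

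Candidate miRNAs gave the 2 separated entries that were higher in non-primary roots. One candidate had 33 reads in SR and 31 in CR (2.85 and 2.84 RPM) and 0 in both primary libraries. The sources used here do not say whether a 0 was counted or marks a candidate not listed for that library. A candidate that was not separated had 0 reads in PRY against 180, 166 and 193 in PRO, SR and CR. If the 0 was counted, a floor of 3 reads puts the candidate with 33 and 31 reads at least 10.1-fold higher on the non-primary side. The other separated candidate had 12 reads in SR and 26 in CR (1.04 and 2.38 RPM), again with 0 in PRY and PRO. On the same condition it was at least 3.71-fold higher. The reverse was seen for 1 candidate with 21 and 14 reads in PRY and PRO against 5 and 5 in SR and CR, a gap of 2.77-fold whose interval of 0.941 to 9.81 includes 1. Of the 67 tested candidates, 57 had sides that overlapped. No known miRNA was separated with the non-primary side higher.

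The known entries nearest to the rule in that direction stayed well below 2-fold with the library total. miR166l-5p, a star strand, had 19 and 13 reads in PRY and PRO against 28 and 24 in SR and CR, a gap of 1.24-fold with an interval of 0.651 to 2.39. Over the 6 scalings this gap ran from 1.24 to 2.43, and it passed 2-fold in 1 of them, with the total over distinct miRNA entries. miR171h-5p stood at 9.42 and 19.7 RPM in PRY and PRO against 24.9 and 22.9 in SR and CR, a gap of 1.16-fold (0.964 to 1.40), and miR171k-5p had the same values. For miR171h-5p PRY was the low library, and without PRO the gap was 2.43-fold. The miR171 family represses GRAS transcription factors. All 8 tested 3p entries of this family had sides that overlapped. Among them, miR171h-3p stood at 0.373 and 2.71 RPM in PRY and PRO against 2.16 and 1.83 in SR and CR. Both miR166l-5p and miR171h-5p lay higher on the non-primary side in all 6 scalings. Next was a candidate with 9.14 and 7.51 RPM in PRY and PRO against 9.42 and 9.98 in SR and CR. Its gap was 1.03-fold (0.777 to 1.37). On the other side, the nearest misses after miR169c-3p were miR1432-5p at 1.58-fold (1.22 to 2.07) and miR159f-3p. miR1432-5p, of a family that in rice targets an acyl-CoA thioesterase, stood at 13.9 and 13.9 RPM in PRY and PRO against 6.48 and 8.79 in SR and CR. Its sides overlapped in 1 of the 6 scalings.

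Among all 221 entries the primary libraries were both above the non-primary ones in 63 (28.5%) and both below in 6 (2.71%), with overlap in 152. This imbalance changed with the scaling of the libraries. The split was 16 and 50 with the total over distinct miRNA entries. That total drops only exact copies, so reads shared by near copies enter more than once. In it the 5p entries of miR156 summed to 144495 RPM in PRY and 30740 in CR, while the highest, miR156d-5p, stood at 20801 and 4576. The split was 35 and 25 with TMM factors and 34 and 27 with DESeq2 size factors. It was 31 and 29 with miR156 taken out of the distinct total, and 29 and 32 with each family's highest entry. The median difference between the sides on the log2(RPM + 1) scale, primary minus non-primary, was 0.25 with the library total. It shifted by -0.50, -0.23, -0.27, -0.29 and -0.34 with the other 5 scalings, in the same order. The 2-fold rule was less affected: 8 of the 13 primary calls held in all 6 scalings, and the 8 were the entries of miR169 and miR160. Both non-primary calls also held, but with 0 in both primary libraries no scaling could change them.

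**Figure D3:**
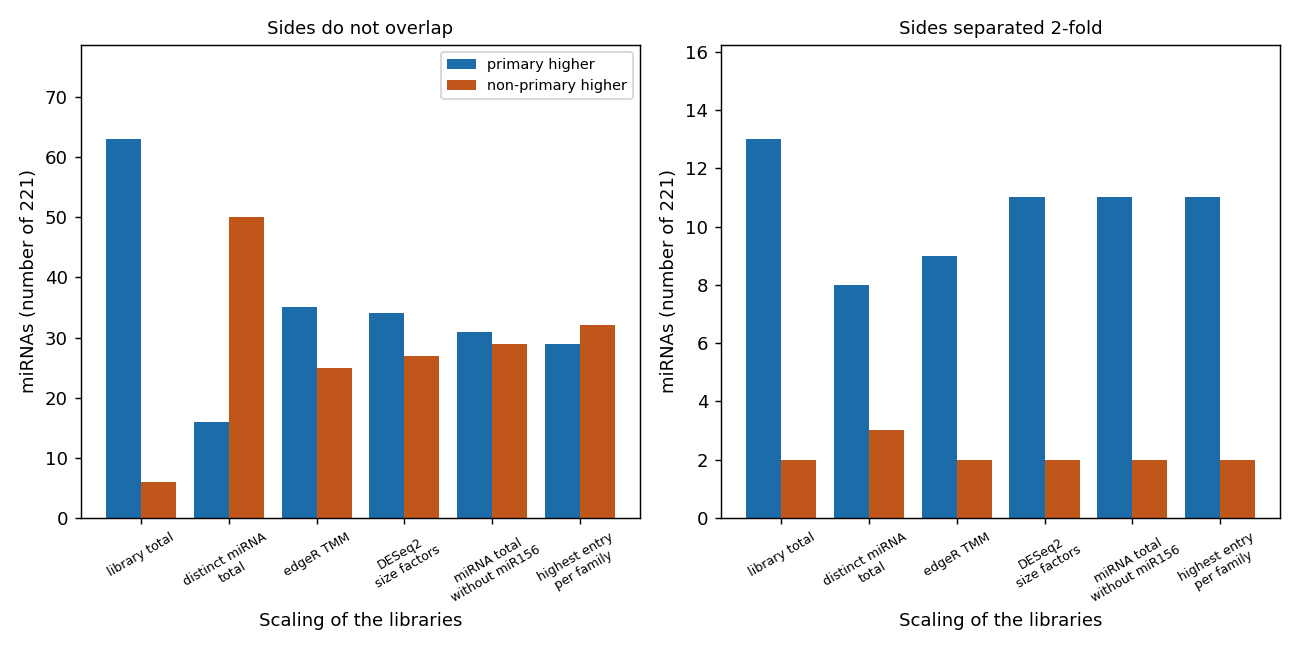
Number of the 221 miRNAs whose sides do not overlap (left) or are separated 2-fold (right), with the primary side higher in blue and the non-primary side higher in orange, under 6 scalings of the libraries. On the left the split runs from 63 and 6 with the library total to 16 and 50 with the distinct miRNA total; on the right the primary bars run from 8 to 13 and the non-primary ones from 2 to 3.

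Leading miRNAs were among those with small gaps. miR168a-5p, a regulator of the Argonaute protein AGO1, was 1.17-fold higher on the primary side with the library total (1.17 to 1.18). In the 6 scalings it lay higher on the primary side once, overlapped in 4 and lay higher on the non-primary side in 1. miR166a-3p, a repressor of HD-ZIP genes of class III, had a gap of 1.17-fold (1.16 to 1.18) and turned likewise, with 2 scalings for the primary side, 3 overlapping and 1 for the non-primary side. miR156d-5p, which represses SPL transcription factors, stood at 20801 and 10527 RPM in PRY and PRO against 8807 and 4576 in SR and CR. The step from PRY to PRO, 1.98-fold, exceeded the gap of 1.20-fold between the sides (1.19 to 1.21). Its sides overlapped in 5 of the 6 scalings. Scalings by miRNA totals divide by sums that contain these leading entries, except miR156d-5p where miR156 is taken out. This draws their gaps towards equality, and both turns to the non-primary side came from such totals. With TMM factors and DESeq2 size factors miR168a-5p and miR156d-5p overlapped as well. miR166a-3p overlapped with DESeq2 size factors but not with TMM factors.

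miR319b-3p, which targets TCP transcription factors, stood at 35.8 and 21.7 RPM in PRY and PRO against 12.2 and 18.0 in SR and CR. Its gap of 1.20-fold (0.992 to 1.46) was lost to overlap in 4 of the 6 scalings. miR827-3p, which targets SPX-domain proteins of phosphate signalling, stood at 4.20, 7.05, 2.33 and 3.48 RPM in the same order. Its gap was 1.21-fold (0.766 to 1.91), and the sides overlapped in 5 scalings.

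In 12 families with tested entries, miR160 among them, the highest entry had overlapping sides. miR528b-5p, a monocot miRNA that represses genes for copper proteins, was lowest in CR at 479 RPM and next in PRY at 1203, with 4439 in SR and 6830 in PRO. miR408b-5p, the star strand of a family that targets plantacyanin and laccases, stood at 3.45 and 27.1 RPM in PRY and PRO against 46.8 and 16.4 in SR and CR. miR398a-3p, a regulator of copper/zinc superoxide dismutase, had its lower values in PRY (0.187 RPM) and CR (0.366) and its higher ones in PRO (2.26) and SR (1.47). For these highest entries of 3 copper-responsive families each side held a high and a low library. The other tested entries of miR408 varied less. miR408a stood at 2.80, 3.89, 3.02 and 2.38 RPM in PRY, PRO, SR and CR, and miR408b-3p at 2.71, 3.71, 3.02 and 2.29.

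Sulfate and auxin families split by other lines as well. miR395e-5p, whose family controls ATP sulfurylase in sulfate assimilation, stood at 0.0933 RPM in PRY and 0.173 in SR against 4.61 in PRO and 5.59 in CR. The high libraries were the 2 of 15 days, 1 on each side. miR167b-5p, which represses auxin response factors, was lowest in PRY at 288 RPM and highest in PRO at 1258, with SR at 709 and CR at 826 between them. miR390a-5p, a trigger of trans-acting siRNAs, stood at 45.1, 75.4, 48.2 and 33.5 RPM in PRY, PRO, SR and CR. miR393a-5p, which targets auxin receptors, stood at 1.87, 3.44, 2.07 and 3.57 RPM.

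miR172a, which represses AP2-like transcription factors, had its extremes on the primary side, with 18.5 RPM in PRY and 103 in PRO, and 50.2 in SR and 24.6 in CR between them. miR164e-5p, which targets NAC transcription factors, showed the same order, with 105 and 273 in PRY and PRO against 168 and 113 in SR and CR. miR396c, which targets growth-regulating factors, stood at 54.8, 51.1, 45.8 and 62.8 RPM in PRY, PRO, SR and CR. miR444a, which targets MADS-box transcription factors, stood at 58.5, 38.7, 55.0 and 74.7 RPM. For miR396c and miR444a the sides overlapped with the library total, while the non-primary side was higher in the other 5 scalings.

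**Figure D4:**
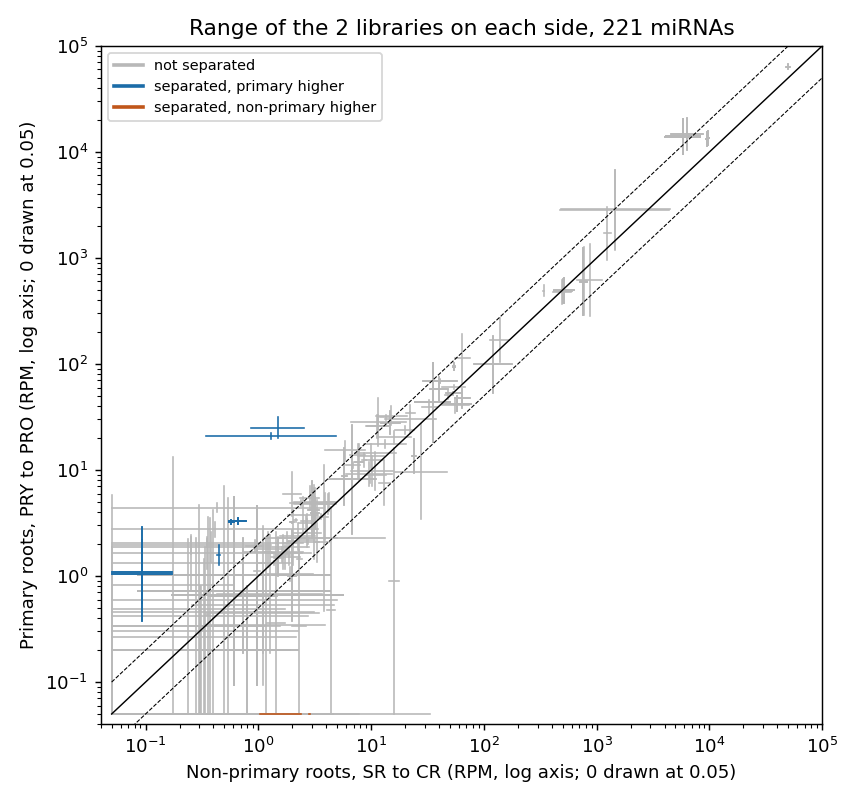
Each of the 221 miRNAs as a cross on log axes, with the range from SR to CR (RPM) along the horizontal axis and from PRY to PRO (RPM) along the vertical one; the solid line is equality and the dashed lines are 2-fold. The 13 entries separated with the primary side higher are blue, the 2 with the non-primary side higher are orange along the lower edge at 0 RPM in primary roots, and the 206 others are grey.

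By role, 6 of 26 tested entries of the auxin signalling families were separated, beside 6.79% of all 221. All of them were miR160 and held 2 distinct sets of values. In the meristem and patterning families 6 of 69 were separated, a share near that of all entries, with 2 of miR169 and 4 of miR159 in 4 distinct sets. None was separated among 23 entries of phase change families, 9 copper-responsive, 20 nutrient, 4 small RNA machinery and 3 monocot entries. The median log2 difference, primary minus non-primary, was 0.66 for phase change, -0.04 for auxin signalling, 0.48 for meristem and patterning, 0.10 for copper-responsive, 0.16 for nutrient, 0.35 for small RNA machinery and -0.42 for monocot entries, beside 0.25 over all 221. Near copies that share reads weigh on these medians. miR156 gave 16 of the 23 phase change entries, miR167 gave 13 of 26 auxin entries and miR444 gave 2 of 3 monocot entries. By family, with the library total, the medians were 1.25 for miR156, 0.31 for miR172, -0.42 for miR444 and 0.80 for miR1432. In the auxin families they were 1.37 for miR160, 0.53 for miR390, -0.01 for miR393 and -0.26 for miR167. Over the 6 scalings the median stayed above 0 for phase change entries and below 0 for auxin signalling and monocot entries. It was above 0 with the library total but below 0 in 4 of the 6 scalings for small RNA machinery entries and for all 221, 5 for copper-responsive, 3 for nutrient and 2 for meristem and patterning entries.

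Differences within a side were common. PRY and PRO differed 2-fold or more in 79 of the 189 entries above 0 in both, with a median fold of 1.75. SR and CR differed 2-fold or more in 63 of 189, with a median fold of 1.48. When the sides were tested against this spread with limma on log2(RPM + 1), 0 of 221 entries (0%) passed an adjusted p of 0.05, and 11 (4.98%) had an unadjusted p under 0.05. edgeR's quasi-likelihood test on the recovered reads also called 0, with 9 at an unadjusted p under 0.05. For miR169k-3p the log2 difference in limma was 3.34, with an unadjusted p of 0.0039 and an adjusted p of 0.57. For miR160a-5p limma gave an unadjusted p of 0.017 and an adjusted p of 0.57.

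DESeq2's Wald test called 2 entries. One was miR169k-3p, with an adjusted p of 0.00365 in DESeq2. The other was a candidate with 363 reads in CR and 0 in each of the other 3 libraries, whose sides overlap at 0. A permutation of 2 libraries against 2 cannot give an exact two-sided p below 0.333. These p-values set the sides against differences of stage, age and root type within them, and none rests on replicate plants.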

How the data were processed

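Per the labels' protocols, a gel fraction of 18 to 30 nt RNA received adapters on both ends, went through RT-PCR of 18 cycles and was read on an Illumina/Solexa Genome Analyzer. The aligner, the miRNA reference and the way candidates were predicted are not stated in the sources used here. The values as deposited by the authors are headed TPM and were treated as RPM, because every value is a whole multiple of 1 read in its library. Recovered totals were 10721082 and 11057522 reads for PRY and PRO, and 11572637 and 10920069 for SR and CR, and 100% of the values came out whole within 0.01 read. Which reads the total covers is not known. Counts of whole reads were recovered from these deposited values and used for intervals, edgeR and DESeq2.

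Entries with 20 or more reads in any library were compared on RPM without a pseudocount. limma used log2(RPM + 1) over all 221 entries with Benjamini-Hochberg adjustment. A library at 0 was given a floor of 3 reads for a bound, which is 0.259 to 0.280 RPM. Without molecular identifiers, PCR copies count as separate reads, and intervals and floors cover counting error only. The comparison, family lists and naming rule were chosen with earlier results of these data known. Named were all separated entries, the 3 nearest misses in each direction and the highest entry of each tested family, and the strand ratios and any other entry were added after values were seen. The code was tested on simulated data. Calculations used Python 3.11.15, pandas 2.3.3, numpy 2.4.6, scipy 1.17.1, matplotlib 3.10.9, R 4.3.3, limma 3.58.1, edgeR 4.0.16 and DESeq2 1.42.0. Candidate names and miRNA sequences are not printed.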

Additional observations from a re-analysis of the deposited data

How the results depend on the processing

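Of the 15 separated entries, 13 were higher in primary and 2 in non-primary roots. The total stayed between 11 and 13 in the 5 other scalings, with 8 in primary roots and 3 in non-primary roots under the distinct miRNA total, where miR166l-5p was added. With no filter on reads there were 28, of which 10 were higher in non-primary roots, and with 100 reads required there were 2, with 0 higher in non-primary roots. A 1.5-fold rule gave 27, of which 25 were higher in primary roots. Requiring the interval to lie above 2-fold gave 7, with 5 in primary roots. Adding 1 RPM to each value left 8 in primary roots, and adding 10 RPM left 2, both in primary roots, and 0 in non-primary roots. Counting identical entries once gave 9, with 7 in primary roots, and sums per family and strand gave 5, with 3 in primary roots. The sums contain the separated entries themselves. Without candidates 0 were higher in non-primary roots. Leaving out 1 library gave 29 to 63 in all, 24 to 40 in primary and 5 to 23 in non-primary roots. The strand ratio count ran from 4, with 50 reads of both strands required and miR169i and miR169k lost, to 13, without PRY. Leaving out 1 library gave 6 to 13. DESeq2 called 2 entries, and limma called 0 with a pseudocount of 10 RPM and with 100 reads required. Its fits without 1 library also called 0, but they leave 1 side with a single library that is assumed to vary like the other side, and say nothing about stability. Over 40 named entries and 5 other scalings, 117 of 200 gaps stayed within their counting interval or kept an overlap, 83 moved and 0 changed direction among called entries. Only entries with a gap of 2-fold or more could count as changing direction, so this 0 says nothing about stability. miR166a-3p and miR168a-5p, each higher on the non-primary side in 1 scaling, were not counted. No paired analysis was possible because each group has 1 library. Depth limits the separated entries of miR159c, miR159d and miR160, which had 0 to 39 reads per library.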
